A study of Mus musculus with 9 samples.

Results

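Blood clotting and clot removal were followed through 10 genes: the coagulation factors F13a1, F5, F7, F10 and F3, the anticoagulants Tfpi and Thbd, and the fibrinolysis genes Plau, Plaur and Thbs1. They were chosen by name, and all 10 had a row among the 23234 gene symbols listed for each library. The libraries are RNA sequencing of CD11b+ monocytes sorted from peripheral blood of C57BL/6 mice, 8 months old, by whether the cells carried Gr-1, the surface epitope shared by Ly6C and Ly6G. All mice carried Yaa, a Y chromosome with an added X segment, so that no library lacks this allele. There were 4 Gr-1+ libraries, labelled null (Fcgr2-/-, replicates 1 and 2), CEBPaCre and CD19Cre (each with Fcgr2 fl/fl). The 5 Gr-1- libraries each had their own label, null, CEBPaCre, CD11cCre, CD19Cre or floxed, the last being Fcgr2 fl/fl with no Cre. Fcgr2, listed as Fcgr2b, encodes CD32, the inhibitory IgG receptor. The CEBPaCre driver acts in myeloid precursors, the CD11cCre driver in CD11c-expressing cells, which include only part of the monocytes, and the CD19Cre driver in B cells.

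Clotting starts when tissue factor, the product of F3, binds activated factor VII on a cell surface and activates factor X. Activated factor X, with factor V as its cofactor, turns prothrombin into thrombin, thrombin makes fibrin, and factor XIII crosslinks the fibrin strands. Tissue factor pathway inhibitor (Tfpi) blocks the first step, and thrombomodulin (Thbd) turns thrombin toward activation of protein C. Urokinase (Plau), held at the cell surface by its receptor (Plaur), makes plasmin, which dissolves fibrin, and thrombospondin 1 (Thbs1) is an adhesive protein that binds fibrinogen, plasminogen and CD36. Monocytes and macrophages are a known cell source of the factor XIII A subunit, while most other clotting factors in plasma come from the liver.

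The start regions of F13a1, F5 and F10, which were higher in Gr-1+ without overlap, and that of Plaur, which did not pass the test between the subsets, are shown so that they can be compared. They are RefSeq windows of build GRCm38.p6, from 250 bases before to 50 bases after the transcript start, written in the direction of transcription. The F13a1 gene lies on the minus strand of chromosome 13 and has 2 listed starts (chr13:37050195-37050494 and chr13:37049164-37049463). F5 lies on the plus strand of chromosome 1 (chr1:164151585-164151884), F10 on the plus strand of chromosome 8 (chr8:13037058-13037357) and Plaur on the plus strand of chromosome 7 (chr7:24462233-24462532). Capitals mark matches, on either strand, to 3 transcription factor motifs, PU.1-type, AP-1 and C/EBP-type.
F13a1 start 1: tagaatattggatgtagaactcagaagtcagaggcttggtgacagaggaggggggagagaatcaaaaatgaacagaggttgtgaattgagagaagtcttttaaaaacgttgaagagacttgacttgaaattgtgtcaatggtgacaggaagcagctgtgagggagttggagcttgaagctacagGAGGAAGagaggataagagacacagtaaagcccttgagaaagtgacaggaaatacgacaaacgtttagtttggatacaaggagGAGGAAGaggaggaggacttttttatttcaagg
F13a1 start 2: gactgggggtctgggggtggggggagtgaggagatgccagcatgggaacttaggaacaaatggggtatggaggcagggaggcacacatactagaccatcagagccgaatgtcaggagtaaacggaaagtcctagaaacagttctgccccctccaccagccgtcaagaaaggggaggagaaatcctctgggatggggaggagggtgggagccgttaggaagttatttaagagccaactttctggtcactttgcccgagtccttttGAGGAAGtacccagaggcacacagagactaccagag
F5: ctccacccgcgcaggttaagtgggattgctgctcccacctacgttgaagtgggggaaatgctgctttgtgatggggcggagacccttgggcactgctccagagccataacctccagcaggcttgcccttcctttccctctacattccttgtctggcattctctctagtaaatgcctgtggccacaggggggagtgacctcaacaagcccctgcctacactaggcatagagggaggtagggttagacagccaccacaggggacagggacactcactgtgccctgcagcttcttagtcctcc
F10: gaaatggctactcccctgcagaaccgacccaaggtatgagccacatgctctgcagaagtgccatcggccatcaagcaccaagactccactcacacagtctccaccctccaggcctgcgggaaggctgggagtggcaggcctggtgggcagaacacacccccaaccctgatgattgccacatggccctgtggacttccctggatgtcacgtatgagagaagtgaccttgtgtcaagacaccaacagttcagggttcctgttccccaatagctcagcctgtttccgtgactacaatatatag
Plaur: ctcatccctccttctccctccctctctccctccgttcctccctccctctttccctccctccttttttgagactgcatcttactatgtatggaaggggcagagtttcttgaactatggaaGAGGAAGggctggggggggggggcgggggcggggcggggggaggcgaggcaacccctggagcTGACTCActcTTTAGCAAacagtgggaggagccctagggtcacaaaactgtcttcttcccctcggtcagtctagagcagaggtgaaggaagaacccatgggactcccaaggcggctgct

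The first F13a1 window holds the PU.1-type motif GAGGAAG with its first base at -66 and at 17 relative to the transcript start, and the second holds it at 14. The Plaur window holds GAGGAAG at -131, the AP-1 motif TGANTCA at -69 and, on the reverse strand, the C/EBP-type motif TTGCNNAA at -59, with no overlap between the 3 matches. The F5 and F10 windows hold none of the 3, nor does the F7 window (plus strand, chr8:13025784-13026083). Among all 32851 windows of this length, 13.6% hold GAGGAAG, 7.81% hold TGANTCA and 10.8% hold TTGCNNAA, so that such matches are common. Of the 10 genes, 7 had a window. Thbd, Plau and Thbs1 had none, so Thbs1, which was also higher in Gr-1+ without overlap, could not be shown. F3 holds TGANTCA at -146 and -135, and both Tfpi windows hold GAGGAAG on the reverse strand. F7 and F10 are direct neighbours on chromosome 8, followed by Proz, in the annotation.

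Levels are given in FPKM as deposited, a unit that divides fragments by the length of the transcript and by the mapped total, so levels can be compared between genes. No read counts were given, so the depth of the libraries is unknown. Summed FPKM ran from 411256 to 560116, and 9783 to 10258 genes per library reached 1 FPKM. Both libraries labelled CD19Cre stood apart, with 1.93% and 2.21% of summed FPKM in ribosomal protein genes, against 3.54% to 7.42% in the other 7. Fcgr2b ranged from 74.9 to 200.7 FPKM and did not follow the genotype labels, so genotypes are given only as labelled. The sort did follow its labels: all 7 tested classical monocyte markers were higher in Gr-1+, and 9 of 10 nonclassical markers were lower. Itgam (CD11b) was present at 61.7 to 186 FPKM. It was lowest in the libraries labelled CD19Cre (61.7 and 68.3 FPKM) and floxed (66.1 FPKM), against 136 to 186 FPKM in the others. Summed neutrophil markers were also higher in Gr-1+ (329 to 1141, against 50.9 to 103 FPKM in Gr-1-), and 10 of 12 tested passed. Ly6g had no row. Summed NK cell markers (1.49 to 2.03 FPKM in Gr-1+, against 24.1 to 460.1 FPKM in Gr-1-) and B cell markers (9.30 to 71.6 FPKM in Gr-1+, against 44.1 to 158 FPKM in Gr-1-) ran the other way, with 8 of 9 and 4 of 5 tested called lower in Gr-1+. T cell markers, none of them tested, were low in both (0.441 to 1.91 FPKM in Gr-1+, against 1.25 to 10.8 FPKM in Gr-1-). Called markers such as Ncr1, Prf1, Cd79a and Camp averaged under 1 FPKM in their lower subset. They reached the mean of 1 FPKM needed for the test through the other subset alone, so the marker counts are a description. Over all genes tested, 14.8% were called (8.84% higher and 5.95% lower in Gr-1+).

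The first comparison set the Gr-1+ against the Gr-1- monocytes. Of the 5 factor genes, F13a1, F5, F10 and F7 were called higher in Gr-1+ monocytes, and F3 was not tested. On the scale of FPKM + 1, F13a1 was 52.8-fold, F5 7.40-fold, F10 2.25-fold and F7 2.16-fold higher, and the adhesive protein gene Thbs1 was 5.82-fold higher. Thbd and Plaur were expressed in both subsets and did not pass the test. Tfpi stayed near 1 FPKM, Plau was near 0, and F3 was listed at 0 in all 9 libraries. Of the 10 genes, 7 reached the mean of 1 FPKM needed for the test, 5 of them were called higher, none was called lower, and 2 were not called. Over all 10436 genes tested, limma called 14.8% (8.84% higher and 5.95% lower in Gr-1+), with a median log2 difference of 0.09. These were 923 higher and 621 lower genes, against 858 higher and 972 lower after rescaling to TPM, where the 5 calls remained. F5, F7 and Thbs1 averaged under 1 FPKM in Gr-1-, and passed the filter through their Gr-1+ level alone, so the count of calls is a description. Their folds depend on the pseudocount: with 0.1 and with 5 in place of 1, the log2 difference was 4.13 and 1.46 for F5, 3.67 and 1.29 for Thbs1, and 2.00 and 0.42 for F7. In sorted bulk samples, fewer cells of a type and less RNA per cell cannot be told apart. Whether each library came from its own animal is not in the labels, so a p here measures only how far libraries spread.

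F13a1, the catalytic A subunit of factor XIII, had 375, 455, 538 and 1205 FPKM in the Gr-1+ libraries labelled null replicate 1, null replicate 2, CEBPaCre and CD19Cre, against 7.82, 5.56, 9.36, 28.3 and 7.94 FPKM in the Gr-1- libraries labelled null, CEBPaCre, CD11cCre, CD19Cre and floxed. Every Gr-1+ library stood far above every Gr-1- library, and CD19Cre was the highest of each subset. The mean was 643 ± 380.3 FPKM in Gr-1+ (SD, n = 4), against 11.8 ± 9.32 FPKM in Gr-1- (n = 5), a log2 difference of 5.72 ± 0.45 (SE; limma adjusted p = 1.58e-05). Leaving out both CD19Cre libraries gave 5.72 ± 0.21. Within a genotype, the Gr-1- level was 1.88% of the Gr-1+ level in null, 1.03% in CEBPaCre and 2.35% in CD19Cre. For the 7 classical monocyte markers these shares ran from 0.901% to 5.61%, from 1.36% to 5.89% and from 1.60% to 8.62%, so the Gr-1- level of F13a1 lay within the range of the markers in null and CD19Cre, and below it in CEBPaCre.

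F5, the cofactor of activated factor X, had 8.08, 7.93, 11.04 and 14.1 FPKM in the Gr-1+ libraries, in the same library order, against 0.368, 0.355, 0.507, 0.835 and 0.423 FPKM in the Gr-1- libraries. No Gr-1- library reached 1 FPKM, and CD19Cre was again the highest of each subset. The mean was 10.3 ± 2.91 FPKM in Gr-1+ (SD, n = 4), against 0.497 ± 0.198 FPKM in Gr-1- (n = 5). On the log2(FPKM + 1) scale, which understates the change of low genes, the difference was 2.89 ± 0.20 (SE; adjusted p = 1.04e-05).

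F10, the zymogen whose active form makes thrombin, had 130.5, 82.2, 76.9 and 104 FPKM in the Gr-1+ libraries, against 55.3, 37.1, 27.2, 60.9 and 38.9 FPKM in the Gr-1- libraries. Its RNA was thus plentiful in both subsets, and the lowest Gr-1+ library still lay above the highest Gr-1- library. The mean was 98.3 ± 24.4 FPKM in Gr-1+ (SD, n = 4), against 43.9 ± 13.9 FPKM in Gr-1- (n = 5), a log2 difference of 1.17 ± 0.27 (SE; adjusted p = 0.0129). The Gr-1- level was 52.0%, 48.3% and 58.7% of the Gr-1+ level in null, CEBPaCre and CD19Cre, a far smaller step than that of F13a1 in each genotype.

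F7, the gene for factor VII, whose activated form tissue factor binds, had 2.72, 1.30, 1.97 and 4.99 FPKM in the Gr-1+ libraries, against 1.29, 0.141, 0.260, 1.35 and 0.480 FPKM in the Gr-1- libraries. The subsets overlapped, since the CD19Cre Gr-1- library lay above null replicate 2 of Gr-1+. Its mean was 2.74 ± 1.61 FPKM in Gr-1+ (SD, n = 4), against 0.704 ± 0.576 FPKM in Gr-1- (n = 5), a log2 difference of 1.11 ± 0.32 (SE; adjusted p = 0.0379). This call was lost in 9 of 17 alternative settings. Among them were those without null replicate 1, CEBPaCre or CD19Cre of Gr-1+ (adjusted p = 0.0855, 0.0610 and 0.0794) and those without CEBPaCre, CD11cCre or floxed of Gr-1- (0.0890, 0.0832 and 0.0719). With genotype as a block the adjusted p was 0.0503. Proz, the neighbour of F10 that encodes the anticoagulant protein Z, had 0.353 to 1.25 FPKM in Gr-1+, against 0.340 to 1.40 FPKM in Gr-1-, and was under the filter.

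F3, the gene for tissue factor, which starts clotting, was listed at 0 FPKM in every library of both subsets. A listed 0 can be a failed estimate, so it gives no upper limit for the RNA.

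Thbs1 had 26.6, 7.95, 4.33 and 3.94 FPKM in the Gr-1+ libraries, against 0.436, 0.322, 0.959, 0.736 and 0.355 FPKM in the Gr-1- libraries. Null replicate 1 was by far the highest Gr-1+ library, and all 5 Gr-1- libraries lay under 1 FPKM, with no overlap. The mean was 10.7 ± 10.7 FPKM in Gr-1+ (SD, n = 4), against 0.562 ± 0.276 FPKM in Gr-1- (n = 5), a log2 difference of 2.54 ± 0.44 (SE; adjusted p = 0.00245). Without null replicate 1 the difference was 2.00 (adjusted p = 5.92e-04). F13a1, F5, F10 and Thbs1 are the 4 genes whose subsets did not overlap, which was true of 16.5% of the genes tested.

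**Figure D1:**
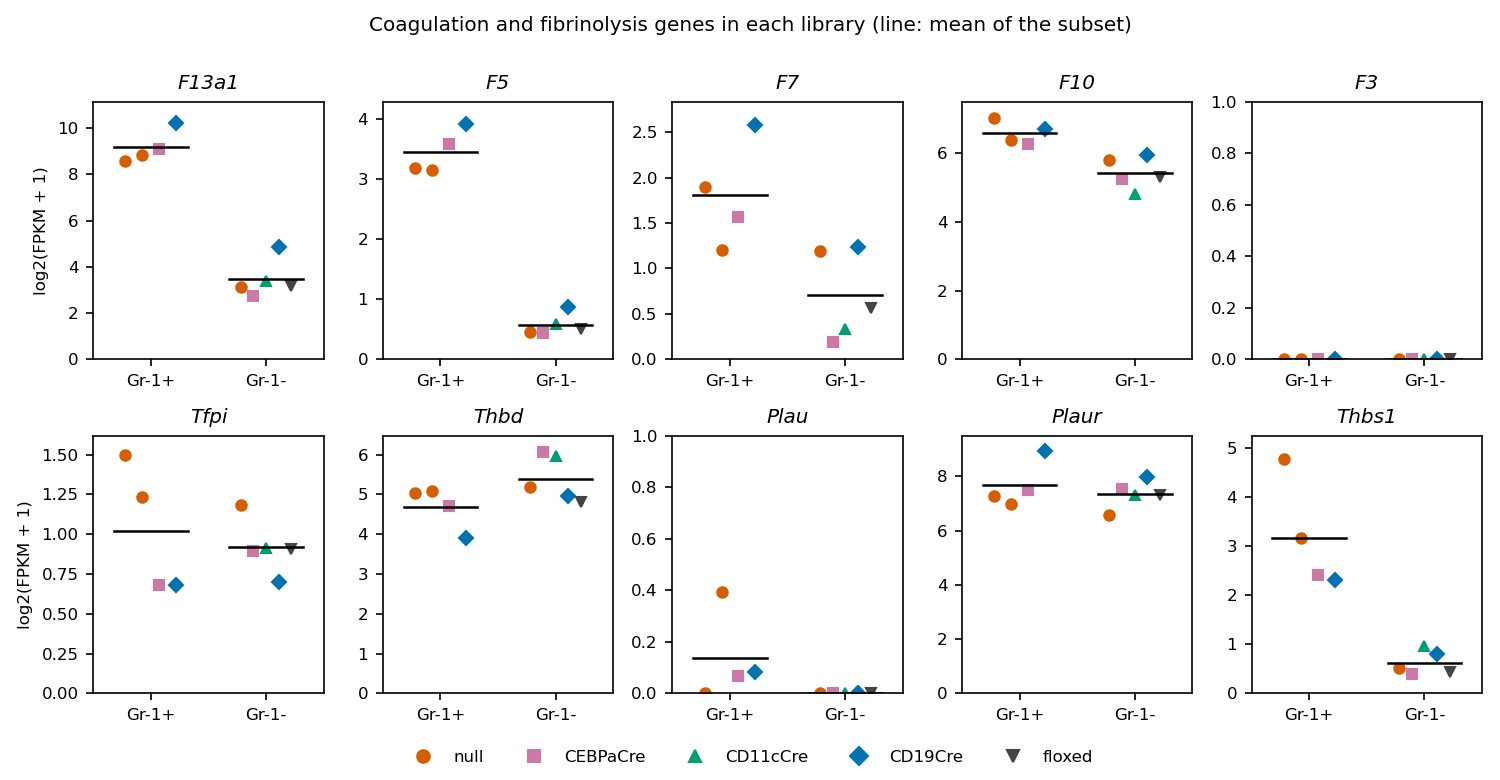
Each panel shows 1 gene, with log2(FPKM + 1) on the vertical axis, the 4 Gr-1+ libraries left of the 5 Gr-1- libraries, symbols for the genotype label and a line at the mean of each subset. The subsets separate for F13a1, F5, F10 and Thbs1, overlap for F7, Tfpi, Thbd and Plaur, and sit at or near 0 for F3 and Plau.

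Of the anticoagulant and fibrinolysis genes among the 10, Thbs1 was the only one called. Thbd, the endothelial and monocyte receptor that redirects thrombin, had 31.7, 33.1, 25.0 and 14.1 FPKM in the Gr-1+ libraries, against 35.5, 65.7, 61.4, 30.3 and 27.1 FPKM in the Gr-1- libraries. CEBPaCre and CD11cCre of Gr-1- were the highest and CD19Cre of Gr-1+ the lowest, while the others overlapped. The mean was 26.0 ± 8.67 FPKM in Gr-1+ (SD, n = 4), against 44.0 ± 18.2 FPKM in Gr-1- (n = 5), a log2 difference of -0.71 ± 0.33 (SE) that did not pass (adjusted p = 0.2002; 95% interval -1.45 to 0.02). With library weights it was called (-0.87, adjusted p = 0.0396), while the adjusted p over all 18 alternatives ran up to 0.406. Summed endothelial markers were at 0 to 1.03 FPKM in Gr-1+, against 0.219 to 0.515 FPKM in Gr-1-, Robo4 was listed at 0 in every library, and Cdh5 did not exceed 0.106 FPKM, below the level of Thbd in each library. The part of endothelial RNA in the Thbd level was not tested.

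Plaur, the urokinase receptor, had 156, 124, 181 and 485 FPKM in the Gr-1+ libraries, against 93.7, 187, 157, 253 and 160.1 FPKM in the Gr-1- libraries. It was the second most abundant of the 10 genes in Gr-1+ and the most abundant in Gr-1-, and the subsets overlapped. The mean was 237 ± 167 FPKM in Gr-1+ (SD, n = 4), against 170.1 ± 57.8 FPKM in Gr-1- (n = 5), a log2 difference of 0.33 ± 0.40 (SE) that did not pass (adjusted p = 0.658; 95% interval -0.56 to 1.21). Without the CD19Cre Gr-1+ library, the highest of all, the difference was -0.09.

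Plau, urokinase itself, had 0, 0.313, 0.0476 and 0.0604 FPKM in the Gr-1+ libraries and was listed at 0 in all 5 Gr-1- libraries. The zeros carry the same limit as those of F3. Tfpi had 1.83, 1.35, 0.602 and 0.600 FPKM in the Gr-1+ libraries, against 1.27, 0.861, 0.886, 0.623 and 0.873 FPKM in the Gr-1- libraries. The highest values of both subsets were in libraries labelled null, and the subsets overlapped throughout. With a mean of 0.988 FPKM over all 9 libraries, Tfpi lay just under the filter, and Thbs1 and F7, at 5.06 and 1.61 FPKM, were among those above it. Without the filter, Tfpi had a log2 difference of 0.10 (adjusted p = 0.836).

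The order of the mean levels changed between the subsets. In Gr-1+ it was F13a1, Plaur, F10, Thbd, Thbs1, F5, F7, Tfpi, Plau and F3, and in Gr-1- it was Plaur, Thbd, F10, F13a1, Tfpi, F7, Thbs1 and F5, with F3 and Plau at 0. F13a1 was above Plaur in each of the 4 Gr-1+ libraries and below F10 in 5 of 5 Gr-1- libraries. Neighbours whose ranges over libraries did not overlap were F10 and Thbd, F5 and F7, and Tfpi and Plau in Gr-1+, and Plaur and Thbd, F13a1 and Tfpi, and F5 and F3 in Gr-1-. All other neighbours overlapped.

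**Figure D2:**
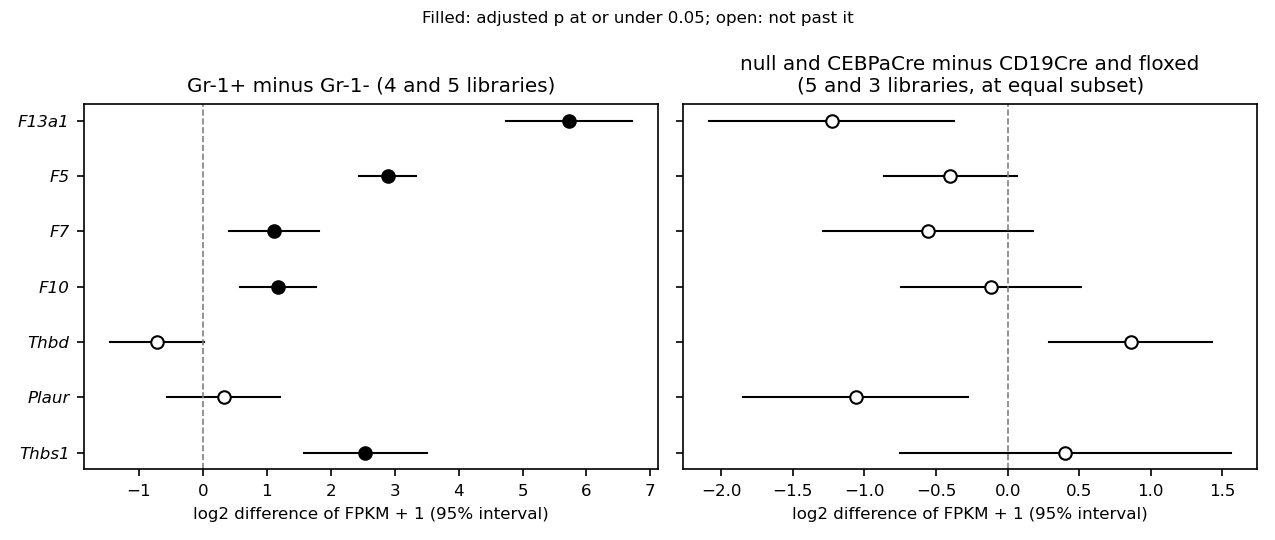
Points are log2 differences of FPKM + 1 with 95% intervals from limma for the 7 tested genes, Gr-1+ minus Gr-1- on the left and null and CEBPaCre minus CD19Cre and floxed on the right, filled where the adjusted p is at or under 0.05. F13a1, F5, F7, F10 and Thbs1 are filled on the left, from 1.11 for F7 to 5.72 for F13a1, and no point is filled on the right.

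Beside these differences, other cell types known to make the same proteins were measured. Platelets carry factor V, factor XIII and thrombospondin 1, and summed platelet markers were at 16.0 to 49.9 FPKM in Gr-1+, against 13.8 to 35.4 FPKM in Gr-1-. Of 9 tested platelet markers, Gp9 alone was called (higher in Gr-1+), and Pf4 had 3.02 to 9.07 FPKM in Gr-1+, against 1.33 to 5.86 FPKM in Gr-1-. Thbs1 was highest in null replicate 1, the Gr-1+ library with the lowest platelet sum. Neutrophil markers moved with the subset as given above. Among the Gr-1+ libraries their sum was highest in CD19Cre (1141 FPKM), as F13a1, F5, F7 and Plaur were. Camp, Ltf, Mpo, Elane, Ctsg, Mmp8, Ngp, Csf3r and Cebpe were also highest there. Lcn2, Prtn3, Stfa2l1 and Cxcr2 were instead highest in null replicate 1, and Mmp9 in CEBPaCre. The part of platelet and neutrophil RNA in these differences was not tested.

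The wider pathway was described from 5 lists, in which 13 genes in all were called between the subsets, 9 higher and 4 lower in Gr-1+, with the genes above included. Over all genes tested, 14.8% were called (8.84% higher and 5.95% lower in Gr-1+). F5, F7, Thbs1, Vwf and Nqo1 passed the filter through their higher subset alone, so the counts of each list are a description. Of 17 coagulation factor genes, 5 were tested, 4 were higher and 1, Vwf, was lower. The remaining 12 were under the filter, with Fgb and F3 listed at 0 in every library. F2, F8, F9, F11 and F12, which encode prothrombin and the other cascade enzymes and cofactor, stayed below 0.5 FPKM in all libraries. Vwf, the platelet-tethering factor made by endothelium and megakaryocytes, had 0.458, 0.545, 0.626 and 0.120 FPKM in the Gr-1+ libraries, against 1.35, 2.42, 2.76, 1.59 and 1.29 FPKM in the Gr-1- libraries. It was low throughout without overlap, and passed the filter through its Gr-1- level alone, with a log2 difference of -0.99 ± 0.21 (SE; adjusted p = 0.00912).

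Factors VII and X need vitamin K-dependent carboxylation, and factor V needs the Lman1 and Mcfd2 cargo receptor to leave the cell. Of the 8 genes for these steps, all tested, 1 was higher, 1 was lower and 6 were not called. Nqo1, a quinone reductase able to reduce vitamin K, had a mean of 0.559 ± 0.238 FPKM in Gr-1+ (SD, n = 4), against 4.34 ± 1.72 FPKM in Gr-1- (n = 5), a log2 difference of -1.72 (adjusted p = 0.00118), and it too passed the filter through its Gr-1- level alone. Vkorc1l1, a vitamin K epoxide reductase, had a mean of 12.5 ± 3.32 FPKM in Gr-1+, against 7.17 ± 1.26 FPKM in Gr-1-, and its call (log2 difference 0.70, adjusted p = 0.0485) was lost in 12 of 18 alternative settings, with adjusted p up to 0.121. Leaving out any 1 library other than CEBPaCre Gr-1+ or CD19Cre Gr-1- was among them (adjusted p = 0.0612 to 0.121). Lman1 had a mean of 29.9 ± 20.3 FPKM in Gr-1+, against 16.5 ± 5.25 FPKM in Gr-1-, and was not called (adjusted p = 0.259).

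Of 13 anticoagulant genes, 3 were tested and 1 was called. That gene, Anxa5, encodes annexin A5, which shields phosphatidylserine from clotting factors. It had a mean of 441 ± 149 FPKM in Gr-1+ (SD, n = 4), against 209.8 ± 111 FPKM in Gr-1- (n = 5), with a log2 difference of 1.14 (adjusted p = 0.0478) whose call was lost in 9 of 18 alternative settings, with adjusted p up to 0.106. Leaving out any 1 library other than CD19Cre Gr-1- ended it (adjusted p = 0.0577 to 0.106). Pros1, the gene for protein S, a cofactor of activated protein C, had a mean of 55.7 ± 26.7 FPKM in Gr-1+, against 29.0 ± 13.6 FPKM in Gr-1-, and was not called (adjusted p = 0.125), but it was with genotype as a block (log2 difference 0.76, adjusted p = 0.00953). Procr, the endothelial protein C receptor, did not exceed 0.331 FPKM.

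Of 15 fibrinolysis genes, 6 were tested, 3 were higher, none was lower and 3 were not called. Besides Thbs1, the called genes were S100a10 and Anxa2, whose products form the annexin A2 complex that binds plasminogen and its activator at the cell surface. S100a10 had 440.0, 504, 514 and 203 FPKM in the Gr-1+ libraries, against 34.0, 55.4, 53.0, 54.9 and 62.3 FPKM in the Gr-1- libraries. It was several times higher in each Gr-1+ library, with CD19Cre the lowest of the 4, and the fold was 7.53 (log2 difference 2.91 ± 0.30, adjusted p = 8.64e-05). Anxa2 had a mean of 1047 ± 229 FPKM in Gr-1+ (SD, n = 4), against 347 ± 116 FPKM in Gr-1- (n = 5), 3.09-fold higher (adjusted p = 0.00215). Plgrkt, another plasminogen receptor, had a mean of 34.8 ± 12.3 FPKM in Gr-1+, against 50.7 ± 5.17 FPKM in Gr-1-, and was not called (adjusted p = 0.132). The tissue activator Plat and plasminogen (Plg) did not exceed 0.0874 FPKM in any library.

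Of 10 genes for thrombin receptors and platelet-type adhesion partners, 5 were tested, none was higher, 2 were lower and 3 were not called. Cd36, a receptor for thrombospondin 1, is also in the nonclassical marker list. It had 7.96, 4.82, 3.34 and 5.46 FPKM in the Gr-1+ libraries, against 137, 124, 153, 143 and 82.1 FPKM in the Gr-1- libraries. The subsets lay far apart, in the opposite direction to Thbs1, with a 20.4-fold lower level in Gr-1+ (log2 difference -4.35 ± 0.26, adjusted p = 6.65e-06). Itgb3, the beta chain of the fibrinogen and vitronectin receptors, had a mean of 2.38 ± 1.39 FPKM in Gr-1+ (SD, n = 4), against 15.6 ± 7.06 FPKM in Gr-1- (n = 5), 4.83-fold lower in Gr-1+ (adjusted p = 0.00198). The thrombin receptor F2r had 0 to 0.230 FPKM in Gr-1+, against 0.0988 to 2.01 FPKM in Gr-1-, and was under the filter.

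**Figure D3:**
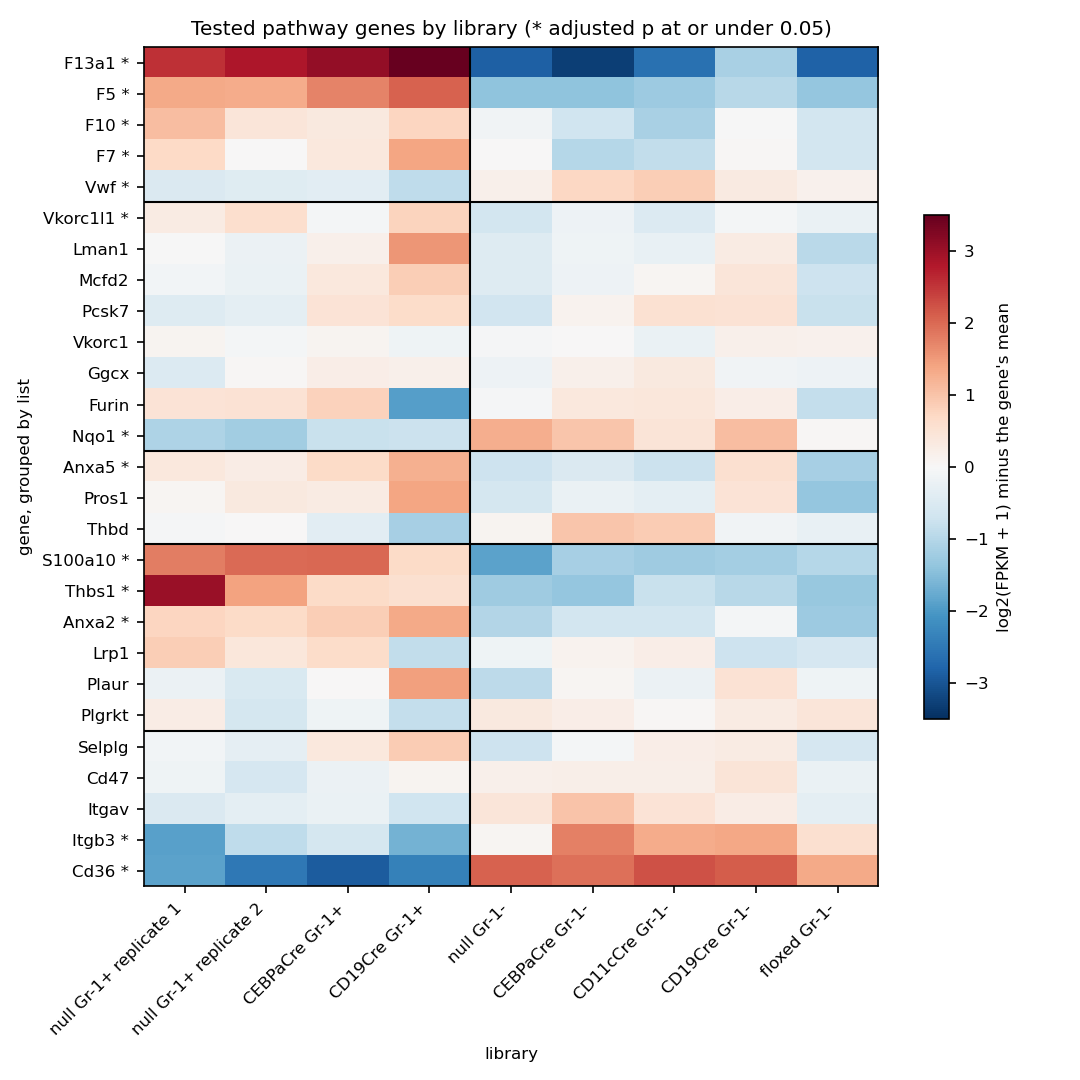
Rows are the tested genes of the 5 pathway lists, separated by lines, columns are the 4 Gr-1+ libraries and then the 5 Gr-1- libraries, and colour is log2(FPKM + 1) minus the gene's mean over the 9 libraries. F13a1, F5, S100a10 and Thbs1 are red in every Gr-1+ library and blue in every Gr-1- library, while Cd36 and Itgb3 run the other way.

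The second comparison asked whether the genes followed the labelled removal of Fcgr2 in myeloid cells. The libraries labelled null and CEBPaCre (5) were set against those labelled CD19Cre and floxed (3) at equal subset. Fcgr2b itself did not follow these labels, as given above. No gene of 10429 was called by limma (0%), while 1470 had an unadjusted p under 0.05. Of the 7 tested genes, 0 were called and 3, F13a1, Thbd and Plaur, had an unadjusted p under 0.05. F13a1 had 375, 455 and 538 FPKM in null and CEBPaCre against 1205 FPKM in CD19Cre within Gr-1+, and 7.82 and 5.56 FPKM in null and CEBPaCre against 28.3 and 7.94 FPKM in CD19Cre and floxed within Gr-1-. It was lower in each library labelled as deleted, though null Gr-1- and floxed Gr-1- were nearly equal, and the log2 difference was -1.23 ± 0.38 (SE; adjusted p = 0.306). Thbd had 31.7, 33.1 and 25.0 FPKM in null and CEBPaCre against 14.1 FPKM in CD19Cre within Gr-1+, and 35.5 and 65.7 FPKM against 30.3 and 27.1 FPKM in CD19Cre and floxed within Gr-1-. It was higher in each library labelled as deleted, by a log2 difference of 0.86 ± 0.25 (SE; adjusted p = 0.306).

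Plaur had 156, 124 and 181 FPKM in null and CEBPaCre against 485 FPKM in CD19Cre within Gr-1+, and 93.7 and 187 FPKM against 253 and 160.1 FPKM in CD19Cre and floxed within Gr-1-. CEBPaCre Gr-1- lay above floxed Gr-1-, so the groups overlapped there, and the log2 difference was -1.06 ± 0.35 (SE; adjusted p = 0.307). For the other tested genes the differences were -0.40 ± 0.21 for F5, -0.56 ± 0.33 for F7, -0.12 ± 0.28 for F10 and 0.40 ± 0.51 for Thbs1, with adjusted p from 0.393 to 0.844. The Thbs1 difference turned to -0.15 without the CD19Cre Gr-1+ library, and that of F10 to 0.01 without CEBPaCre Gr-1- and 0.03 without CD19Cre Gr-1-. CD19Cre is the only label with intact myeloid Fcgr2 in Gr-1+, and its libraries stood apart in their ribosomal share, so the genotype and these libraries cannot be told apart there. Itgam was also lower in the CD19Cre and floxed libraries than in all others, as given above, and its part in these differences was not tested.

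Without the floxed library, when only CD19Cre libraries stood for intact Fcgr2, F13a1 (-1.66, adjusted p = 0.00863), Plaur (-1.32, adjusted p = 0.0202) and Thbd (0.85, adjusted p = 0.0442) were called, but so were 24.5% of all genes. With library weights, F13a1 was called (-1.51, adjusted p = 0.0418), as were 6.45% of all genes. Within Gr-1-, the CD19Cre library exceeded the floxed library, also labelled as intact in monocytes, by 1.71 for F13a1 and 0.66 for Plaur on the log2 scale. The null Gr-1- library differed from the floxed library by -0.02 for F13a1, 0.38 for Thbd and -0.77 for Plaur, and the CEBPaCre Gr-1- library by -0.45, 1.25 and 0.22. In the CD11cCre Gr-1- library, kept out of the fit, the differences from floxed were 0.21 for F13a1, 1.15 for Thbd and -0.03 for Plaur. These pairs have 1 library a side and no test.

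A further fit asked whether the subset difference itself changed with the deletion label. Of 10429 genes, 9 were called (0.0863%), and none of the 7 tested genes was among them, with adjusted p from 0.882 to 0.987 and none under an unadjusted p of 0.05. The F13a1 difference between Gr-1+ and Gr-1- was 5.56 in null, 6.36 in CEBPaCre and 5.36 in CD19Cre on the log2 scale. For F5 it was 2.72, 3.15 and 3.04, and for F10 it was 0.93, 1.03 and 0.76, in the same order. Thbs1 had 3.67, 2.01 and 1.51. Thbd had -0.13, -1.36 and -1.05, and Plaur had 0.57, -0.04 and 0.93, so that Plaur alone of these 6 genes had both signs. The interval of the interaction was wide, for F13a1 from -2.17 to 1.52 around -0.33, and its sign turned without the floxed library (0.53).

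**Figure D4:**
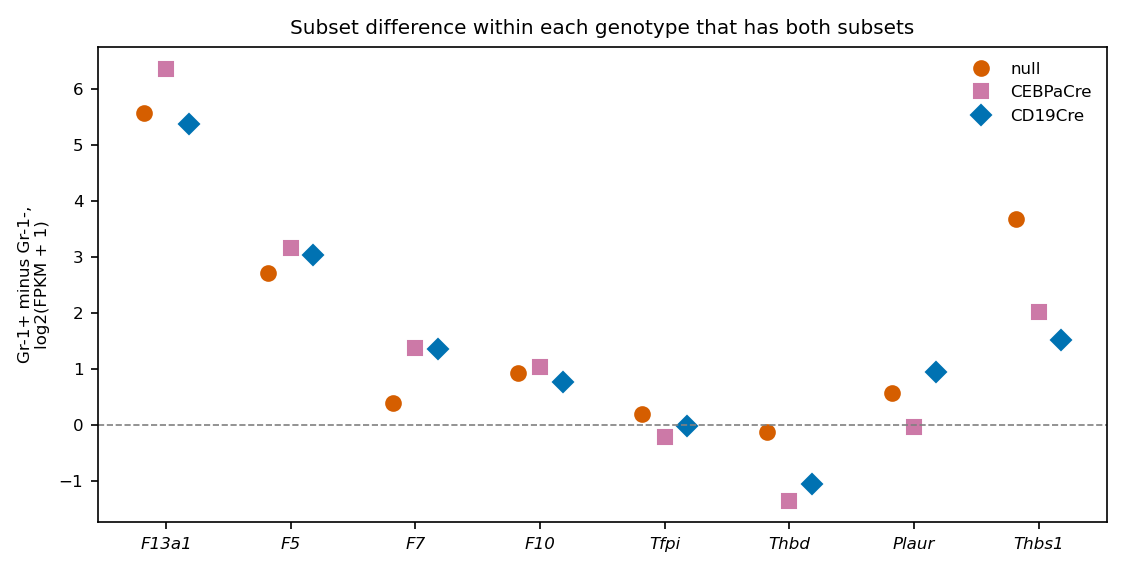
Points are Gr-1+ minus Gr-1- differences of log2(FPKM + 1) within the null, CEBPaCre and CD19Cre labels, 1 group of points per gene, with a dashed line at 0 and no error because most points rest on 1 library per subset. F13a1, F5, F7, F10 and Thbs1 lie above 0 in each genotype, Thbd lies below 0, and Tfpi and Plaur lie on both sides.

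Over the 9 libraries, the genes most like each gene in log2(FPKM + 1) were listed as a description, since all points share the subset difference and their libraries. F13a1 was nearest to Mfsd7a (Pearson r = 0.994), F5 (0.992) and Glipr2 (0.990) among 6921 genes. F5 was nearest to Mfsd7a (0.996), F13a1 (0.992) and Lpgat1 (0.992), and after removal of the subset means F13a1 and F5 still had r = 0.879. The CD19Cre library was the highest of each subset for both genes. The F10 pattern was nearest to Saa3 (0.981), Igfbp6 (0.975) and Rwdd1 (0.968), and that of Thbs1 to Arl15 (0.977), Prelid1 (0.956) and Ccl2 (0.956). The Plaur pattern was nearest to Uros (0.983), Sac3d1 (0.975) and Fnta (0.969), and that of Thbd to Foxj3 (0.955), Ube2z (0.950) and Calcrl (0.944). F7 and F10, the chromosome neighbours, had r = 0.899 over all libraries and 0.738 within subsets. Pairs on different chromosomes ranged widely within subsets, with 0.861 for F5 and Plaur, 0.745 for F13a1 and Plaur, and 0.107 for F5 and F10. Thbd ran against F7 (-0.850 over all libraries and -0.773 within subsets).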

How the data were processed

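RNA was measured in 9 libraries of sorted blood monocytes. The deposited values are FPKM, which the authors made per library and gene symbol. Cufflinks 2.1.1, TopHat2 2.0.8 and build mm9 are named in the submitters' processing notes. The annotation and settings are not given in the sources used here, and 0 value columns were left out. Since FPKM are not counts, limma 3.58.1 in R 4.3.3 (lmFit, eBayes with trend) was fitted to log2(FPKM + 1) over genes that averaged 1 FPKM or more in the 9 libraries and were above 0 in at least 2 fitted libraries. The threshold was an adjusted p of 0.05, after Benjamini-Hochberg adjustment over all genes tested. Subset was a covariate of the deletion fit, and the interaction of both had its own fit. Folds are ratios of geometric means of FPKM + 1. The fits were run on simulated data with independent noise and large planted differences, which cannot show how they behave with small differences or with libraries that are alike. Alternatives changed the pseudocount, filter, scaling, library weights (statmod 1.5.0), libraries and genotype block.

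Named were all 10 genes, up to 4 other called genes of each pathway list by smallest p, and the 3 genes nearest in pattern to each gene with at least 5 FPKM in its higher subset. Values for Lman1, Pros1, Procr, Proz, Plgrkt, Plat, Plg, F2r, further factors and cell type markers were added after they were seen. The genes and lists were chosen with earlier results of these data known. Plgrkt is listed in the files under an older symbol. Promoter windows come from RefSeq on GRCm38.p6, matched by symbol, and no coordinates of the authors' build were used.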

Additional observations from a re-analysis of the deposited data

Results flagged for a closer look

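In 3 groups, the gap between 1 library and the next, as a share of the range, was above Dixon's 95% critical value for the group's size, and all 3 were libraries labelled CD19Cre. The gap of Thbs1 in null replicate 1 of Gr-1+ (26.6 FPKM, with the next at 7.95 FPKM) did not reach it. F13a1 had 28.3 FPKM in the CD19Cre Gr-1- library, where the next highest of the 5 Gr-1- libraries had 9.36 FPKM. Plaur had 485 FPKM in the CD19Cre Gr-1+ library, where the next highest of the 4 Gr-1+ libraries had 181 FPKM. Anxa5 had 404 FPKM in the CD19Cre Gr-1- library, where the next highest had 193 FPKM. Over 18 genes, 33 such groups were examined, and chance sets apart a library in about 1 in 20 groups. The same 2 libraries had the lowest ribosomal protein shares (1.93% in Gr-1+ and 2.21% in Gr-1-), and the part of this in the 3 values was not tested.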

How the results depend on the processing

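F13a1, F5, F10 and Thbs1 were called higher in Gr-1+ under every alternative that tested them, with adjusted p up to 1.08e-04, 2.15e-04, 0.0443 and 0.0155. The 5 calls between the subsets became 3 with a filter at a mean of 5 FPKM, which removed F5 and F7 from the test, and were 4 to 5 with 1 library left out. Pathway calls ran from 10 to 16. In the deletion comparison, the calls were 1 with library weights and 0 to 3 with 1 library left out. No member was called for the interaction under 14 alternatives, and it could not be fitted without the CD19Cre Gr-1+ library. Over all genes, the 1544 subset calls became 2376 with library weights and 2712 with genotype as a block, the 0 deletion calls became 673 with library weights and 2551 without floxed, and the 9 interaction calls ran from 5 to 18. Rescaling to TPM moved the median of all genes by -0.14 (log2) and gave 858 higher and 972 lower genes, against 923 and 621. On the TPM scale F13a1 was 5.64, F5 3.32, F10 1.02 and Thbs1 2.92 higher. Pairing by animal or replicate number was not possible, because the subsets share 1 replicate number in the null label and the labels name no animal. The main fit had no block, so its p leave out any likeness within a genotype, and genotype as a block was an alternative. Across genes, deviations from the subset means had r from 0.156 to 0.593 in same-genotype pairs, against -0.384 to 0.254 in other pairs. These ranges overlapped, and only the CD19Cre pair (0.593) stood clearly above all other pairs. With genotype as a block, which uses only the labels with both subsets, F7 lost its call (adjusted p = 0.0503) and the other 4 kept theirs, while the pathway genes Pros1, Itgav (lower in Gr-1+, adjusted p = 0.00287), Selplg (higher, adjusted p = 0.0405) and Mcfd2 (higher, adjusted p = 0.0492) were called. Depth is unknown, so low values such as those of Plau, F3 and Tfpi carry no detection limit.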
